A study of Homo sapiens with 16 samples.

Results

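Ribosome biogenesis factors are the proteins that make, modify and assemble ribosomal RNA into ribosomes and then leave the finished particle. The 45 genes described here were chosen by name from that pathway, out of 60603 genes in the count table. The rule uses no measured value, but earlier results of these data were known when the genes were chosen. All 45 passed the filter on low counts in both lines. Their transcripts were measured in 16 RNA-seq libraries of 2 established human myeloid cell lines. SKNO-1 carries the RUNX1-RUNX1T1 fusion, and U-937 resembles monocytes. Each line received DMSO, the solvent, all-trans retinoic acid (ATRA), Corin, or ATRA and Corin together for 24 h, at 0.1 µM of each agent, with 2 libraries in each of the 8 groups. ATRA activates retinoic acid receptors, and Corin inhibits the CoREST complex through its demethylase LSD1 and its histone deacetylases HDAC1 and HDAC2. GM-CSF at 10 ng/mL was part of the medium of SKNO-1 in all 4 groups and is not named for U-937, so line and medium cannot be told apart. The labels do not say whether the paired libraries came from separate cultures, so p-values measure the spread between these libraries, which may be technical.

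Ribosome production starts in the nucleolus, where RNA polymerase I copies the ribosomal DNA into a long precursor. Small nucleolar RNAs with box C/D or box H/ACA proteins guide methylation and pseudouridylation of that precursor, a large complex called the small-subunit processome folds and cleaves the part that becomes the 40S subunit, and another set of factors builds the 60S subunit. The genes of this pathway are among the main targets of growth control, and their transcripts are high in dividing cells and lower in mature myeloid cells.

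Levels below are counts scaled to the library total (CPM) after TMM scaling, and both libraries of a group are given. Changes are log2 fold changes with their standard error (SE) from edgeR's quasi-likelihood test, and a gene is called changed at a Benjamini-Hochberg adjusted p under 0.05 over all genes tested. Library totals ran from 28.4 to 37.8 M estimated counts. RUNX1T1 marked SKNO-1, at 108 ± 23.0 CPM with DMSO, while HOXA9 at 55.7 ± 2.85 CPM and HOXA10 at 85.7 ± 6.52 CPM marked U-937 with DMSO (SD, n = 2). The SKNO-1 DMSO pair stood apart from all other pairs: its log2 differences between libraries had an SD of 0.361, against 0.108 to 0.208 in the other 7 groups, and over 9354 genes, which are no independent replicates, they followed GC content (Pearson's r = 0.796). For the 45 genes that difference ran from -0.21 to 1.29, so the SKNO-1 counts against DMSO are also given without DMSO replicate 1 and without DMSO replicate 2. The count table held 0 spike-in rows, so RNA per cell was not measured, and in these bulk samples fewer expressing cells and less RNA per cell cannot be told apart.

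Between genes, levels per transcript length (TPM, as deposited) covered a wide range in DMSO-treated cells. NPM1, which encodes the nucleolar chaperone nucleophosmin, was first in both lines, at 1359.5 ± 329 TPM in SKNO-1 and 1538 ± 88.2 TPM in U-937 with DMSO (SD, n = 2). NCL, which encodes nucleolin, followed at 405 ± 96.5 and 749 ± 84.8 TPM. The lowest was RRS1 in SKNO-1, at 7.42 ± 0.841 TPM, and BOP1 in U-937, at 13.4 ± 1.85 TPM. The median of the 45 genes was 54.4 TPM in SKNO-1 and 50.9 TPM in U-937 with DMSO. It was 21.7 TPM in U-937 with ATRA, 50.8 TPM with Corin and 9.73 TPM with both agents. In SKNO-1 the median was 51.0 TPM with ATRA, 36.5 TPM with Corin and 27.45 TPM with both agents. TPM carry no TMM scaling and were not tested, so they can differ from the changes in CPM given below. LYAR in SKNO-1, for example, had 54.4 ± 13.3 TPM with DMSO and 22.8 ± 1.20 TPM with both agents (SD, n = 2). NOP10, a small protein of the box H/ACA particle, was the fifth gene in the order in U-937 with DMSO and the second with both agents.

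RefSeq promoter windows, from 250 bases before to 50 bases after a transcription start on GRCh38.p14, were found for 38 of the 45 genes. The E-box CACGTG, a palindrome that reads the same on both strands and is bound by several basic helix-loop-helix factors, was present in a window of 18 of those 38 genes (47.4%). It was present in 2396 of all 27305 genes with a window (8.77%) and in 1400 of the 11501 genes that were also tested for expression (12.2%). The stretches below show it in the 6 genes with the largest falls in U-937 with both agents among those that hold it, and in NOP10, the member that rose there and holds it at both of the sites shown. Each is read 5′ to 3′ on the strand of the gene, with the motif in capitals. The first base of the motif lies 64 bases before the start in LYAR (chr4:4290068-4290097, minus strand), 42 after it in EBNA1BP2 (chr1:43172241-43172270, minus strand), 14 after it in MRTO4 (chr1:19251807-19251836, plus strand) and 31 before it in DDX21 (chr10:68956604-68956633, plus strand). It lies 28 bases after the start in BYSL (chr6:41921515-41921544, plus strand), 10 before it in UTP20 (chr12:101280083-101280112, plus strand), and 170 and 11 before it in NOP10 (chr15:34343289-34343318 and chr15:34343130-34343159, minus strand). EBNA1BP2 also holds the motif in the window of another start, 237 bases before that start, and that stretch is not shown. LYAR and DDX21 each have a window of another start too (chr4:4290105-4290404 and chr10:68955920-68956219), and those windows lack the motif. Their distances above are from the start whose window holds it.
LYAR: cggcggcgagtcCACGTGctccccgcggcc
EBNA1BP2: tggcgctggagcgattcggtggCACGTGga
MRTO4: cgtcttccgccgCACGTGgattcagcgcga
DDX21: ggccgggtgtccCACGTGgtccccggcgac
BYSL: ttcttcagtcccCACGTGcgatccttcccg
UTP20: cttttttccgtcCACGTGacccactcaggc
NOP10, upstream site: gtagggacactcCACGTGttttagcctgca
NOP10, site at the start: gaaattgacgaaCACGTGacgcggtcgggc
These letters are a description of the windows: genes with the motif were found among those that fell and as the gene that rose.

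In U-937, the transcripts of nearly the whole pathway fell with ATRA and fell further with ATRA and Corin, while Corin alone changed few of them. With ATRA, 43 of 45 genes fell and 0 rose, where 20.1% of all 17717 genes tested fell and 21.7% rose. Of the 45, 18 fell by at least 1 log2 unit, a cutoff for which the share of all genes is not given. The median log2 fold change of the 45 was -0.88, against 0.02 for all genes tested. With Corin alone, 4 of 45 fell and 0 rose, where 4.40% and 8.55% of all genes did, with a median of -0.09 against 0.00. With both agents, 43 fell and 1 rose, where 32.2% and 33.1% of all genes did. Of the 45, 42 fell by at least 1 log2 unit, again without a share of all genes at that cutoff. The median of the 45 was -1.79 against 0.03 for all genes tested. The 45 genes together held 0.874% and 0.929% of all counts in the DMSO libraries, 0.457% and 0.459% with ATRA, 0.840% and 0.803% with Corin, and 0.257% and 0.273% with both agents. The DMSO and Corin libraries of U-937 were thus the high ones, those with ATRA lay lower, those with both agents lowest, and no library of either ATRA-treated group overlapped the DMSO group. The count with Corin alone was 0 without Corin replicate 2 or DMSO replicate 2, 1 without either ATRA library and 2 without DMSO replicate 1, whereas the counts with ATRA and with both agents were the same without any one library.

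In SKNO-1 the pattern was another: ATRA alone left the pathway near its DMSO level, and Corin lowered it, with or without ATRA, by a smaller amount. With ATRA, 1 of 45 genes fell and 0 rose, where 3.79% and 2.96% of all 17479 genes tested did, and the median log2 fold change was 0.00 against 0.01 for all genes tested. With Corin, 28 fell and 1 rose, where 17.3% and 20.5% of all genes did, with a median of -0.42 against 0.00. With both agents, 29 fell and 0 rose, where 22.0% and 24.7% of all genes did, with a median of -0.33 against 0.06. None of these falls in TMM-scaled counts reached 1 log2 unit. The 45 genes held 0.799% and 0.830% of counts with DMSO, 0.800% and 0.799% with ATRA, 0.723% and 0.709% with Corin and 0.635% and 0.648% with both agents, so the Corin-treated libraries lay below all 4 others. Without SKNO-1 DMSO replicate 1, the fallen and risen genes were 34 and 1 with Corin, 29 and 7 with both agents, and 9 and 12 with ATRA. Without DMSO replicate 2 they were 41 and 1 with Corin, 41 and 0 with both, and 19 and 0 with ATRA, so the SKNO-1 count with ATRA rests on which DMSO library is used, and it was 0 without any one of the other 6 libraries. The SKNO-1 count with Corin was 19 without Corin replicate 2.

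**Figure D1:**
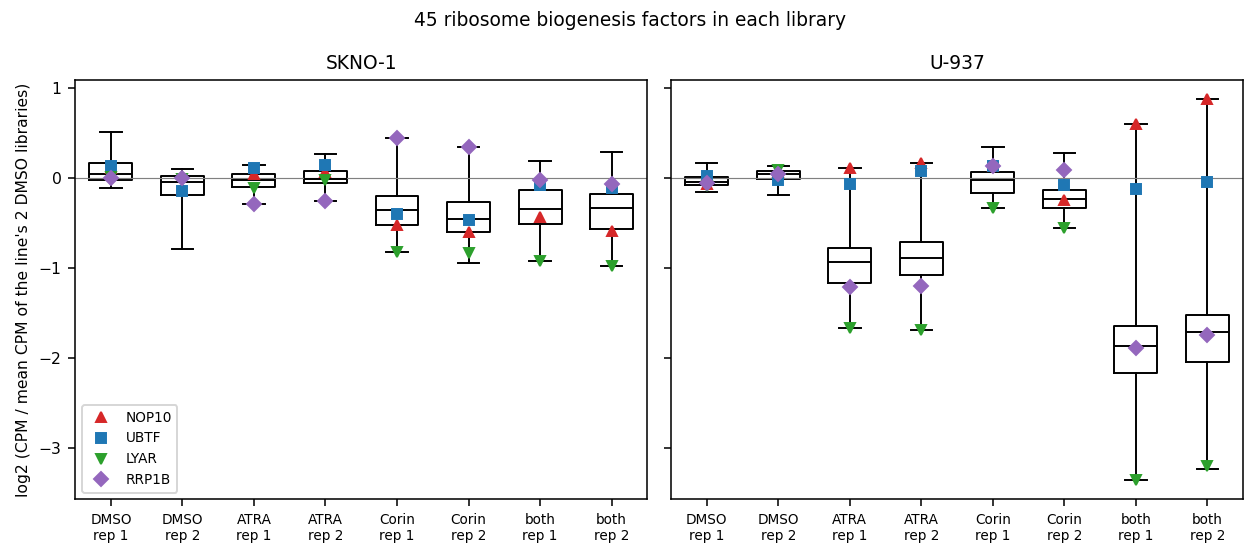
Box plots of the 45 genes in each library, as log2 of the CPM over the mean CPM of the line's 2 DMSO libraries, with the median as the line in the box and whiskers to the lowest and highest gene. In U-937 the libraries with ATRA and with both agents lie below the DMSO and Corin libraries, with NOP10 and UBTF near or above 0, and in SKNO-1 the shift appears in the 4 libraries with Corin.

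**Figure D2:**
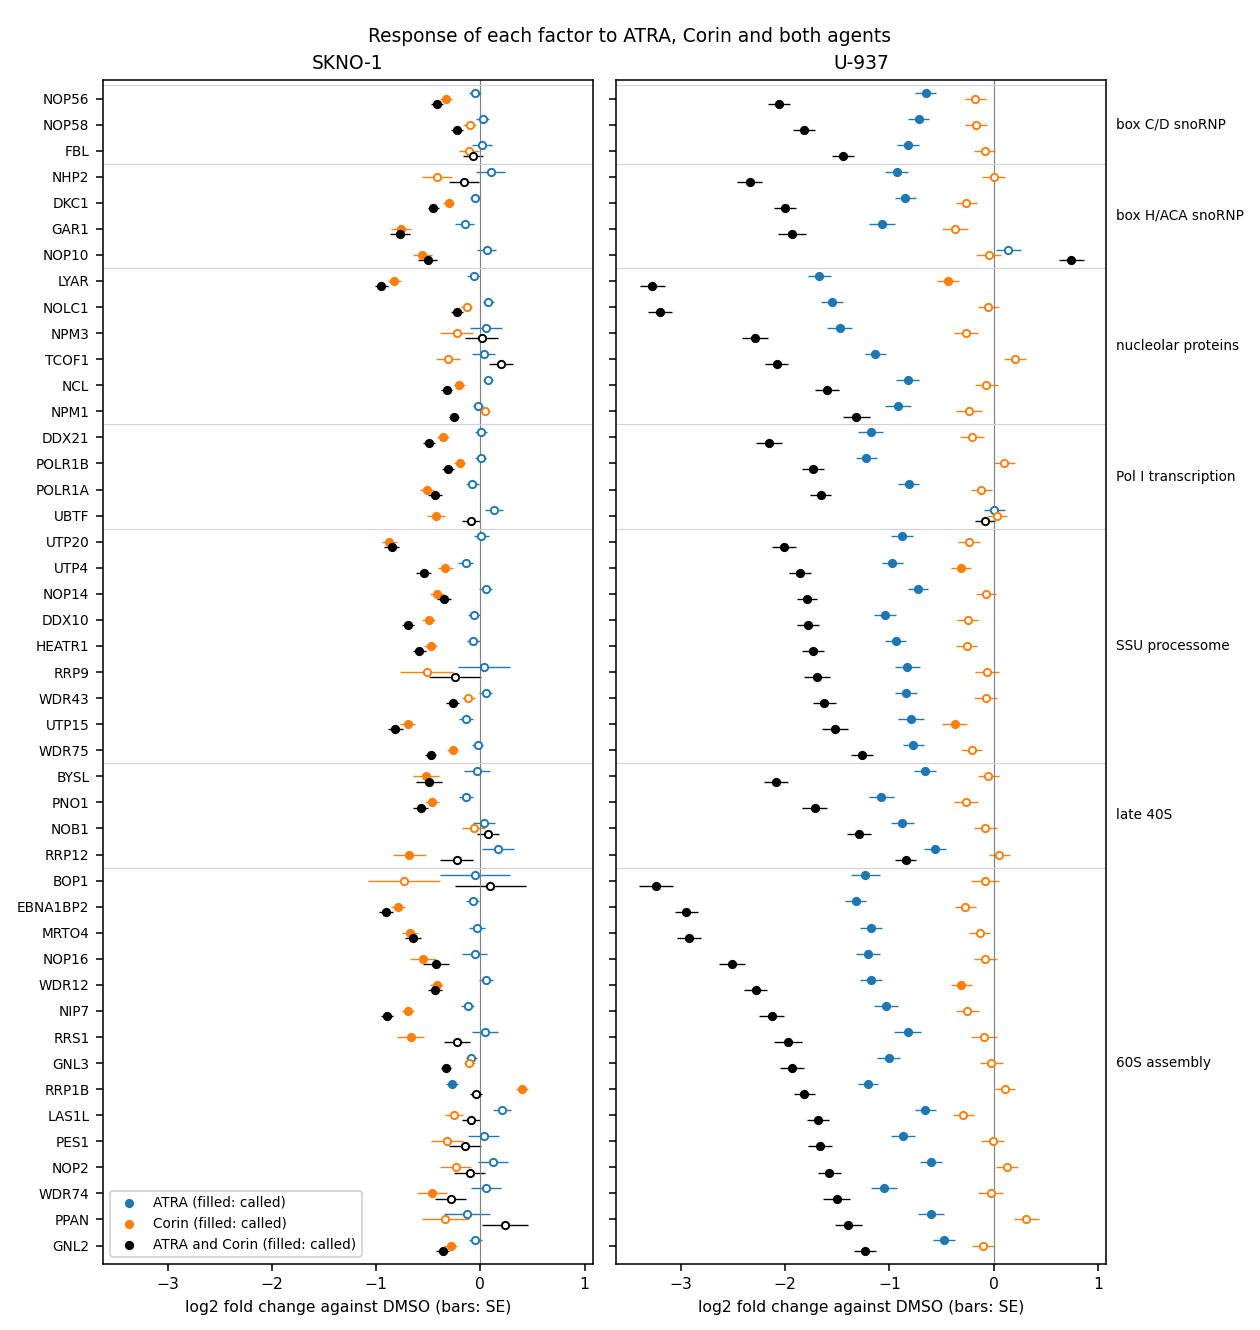
Log2 fold change against DMSO (horizontal axis, with SE bars) of each of the 45 genes, ordered by role, in SKNO-1 (left) and U-937 (right), where filled points are called at an adjusted p under 0.05. In U-937 the order for nearly all genes is Corin near 0, then ATRA, then both agents, with UBTF and NOP10 as the exceptions.

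LYAR and NOLC1, both nucleolar proteins, were among the 3 largest falls in U-937 with both agents. LYAR, a nucleolar zinc-finger protein that binds pre-ribosomal particles (chromosome 4, 4267701 to 4290154, GRCh38), had 100.1 and 114 CPM with DMSO, 33.8 and 33.2 with ATRA, 84.8 and 72.6 with Corin and 10.4 and 11.6 with both agents. All 4 libraries with ATRA were below all 4 without it, and no 2 groups overlapped. Its log2 fold change was -1.67 ± 0.11 with ATRA (adjusted p = 1.21e-11), -0.44 ± 0.10 with Corin (adjusted p = 0.00557) and -3.28 ± 0.12 with both (adjusted p = 6.47e-17), a 9.70-fold lower level. In SKNO-1, LYAR had 85.9 and 84.3 CPM with DMSO, 78.9 and 83.7 with ATRA, 48.1 and 47.8 with Corin and 44.9 and 43.1 with both agents. Here the 4 Corin-treated libraries were the low ones, and the log2 fold change was -0.83 ± 0.06 with Corin (adjusted p = 6.6e-05) and -0.95 ± 0.06 with both agents (adjusted p = 2.32e-05).

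NOLC1, a chaperone of small nucleolar ribonucleoproteins, had 463 and 505 CPM in U-937 with DMSO, 168 and 163 with ATRA, 486 and 450.0 with Corin and 49.3 and 56.0 with both agents. The Corin and DMSO libraries overlapped, those with ATRA lay below them and those with both agents far lower. Its change was -1.55 ± 0.10 log2 units with ATRA and -3.20 ± 0.11 with both, 9.20-fold lower (adjusted p = 3.19e-17), whereas in SKNO-1 it was -0.22 ± 0.05 with both agents (adjusted p = 0.0101). Nucleolin (NCL), which binds the precursor RNA, had 970.4 and 1083 CPM in U-937 with DMSO, 577 and 583 with ATRA, 1025 and 929 with Corin and 318 and 362 with both. The libraries with both agents were the lowest of the line, and the fall was 3.02-fold (log2 fold change -1.60 ± 0.11, adjusted p = 1.48e-11). In SKNO-1, NCL had 596 and 606 CPM with DMSO, 631 and 634 with ATRA, 537 and 507 with Corin and 486 and 476 with both, a change of -0.32 ± 0.05 log2 units with both agents (adjusted p = 0.00158). The SKNO-1 groups with Corin did not overlap DMSO, and the change with both agents differed between the lines by -1.23 ± 0.13 log2 units (U-937 minus SKNO-1, adjusted p = 2.98e-07).

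NPM1 had 1619 and 1755 CPM in U-937 with DMSO, 882 and 902 with ATRA, 1566 and 1299 with Corin and 604 and 749.9 with both agents. It fell with ATRA by 1.89-fold and with both by 2.49-fold (adjusted p = 2.73e-06 and 3.05e-09), one of the smaller falls of the set. In SKNO-1 it had 1671 and 1717 CPM with DMSO, 1665 and 1666 with ATRA, 1773 and 1716 with Corin and 1435 and 1406 with both, and it fell only in the comparison of both agents with DMSO among the 3 comparisons with DMSO (-0.25 ± 0.05, adjusted p = 0.00369). NPM1 counts were fractional (over 0.001 from a whole number) in all 16 libraries, which means that reads were divided between it and other genes, so its values are uncertain. NPM3, a relative of NPM1, and TCOF1, which encodes treacle and links polymerase I transcription with modification of the precursor, changed by -2.29 and -2.08 log2 units in U-937 with both agents, and neither passed the test against DMSO in SKNO-1.

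**Figure D3:**
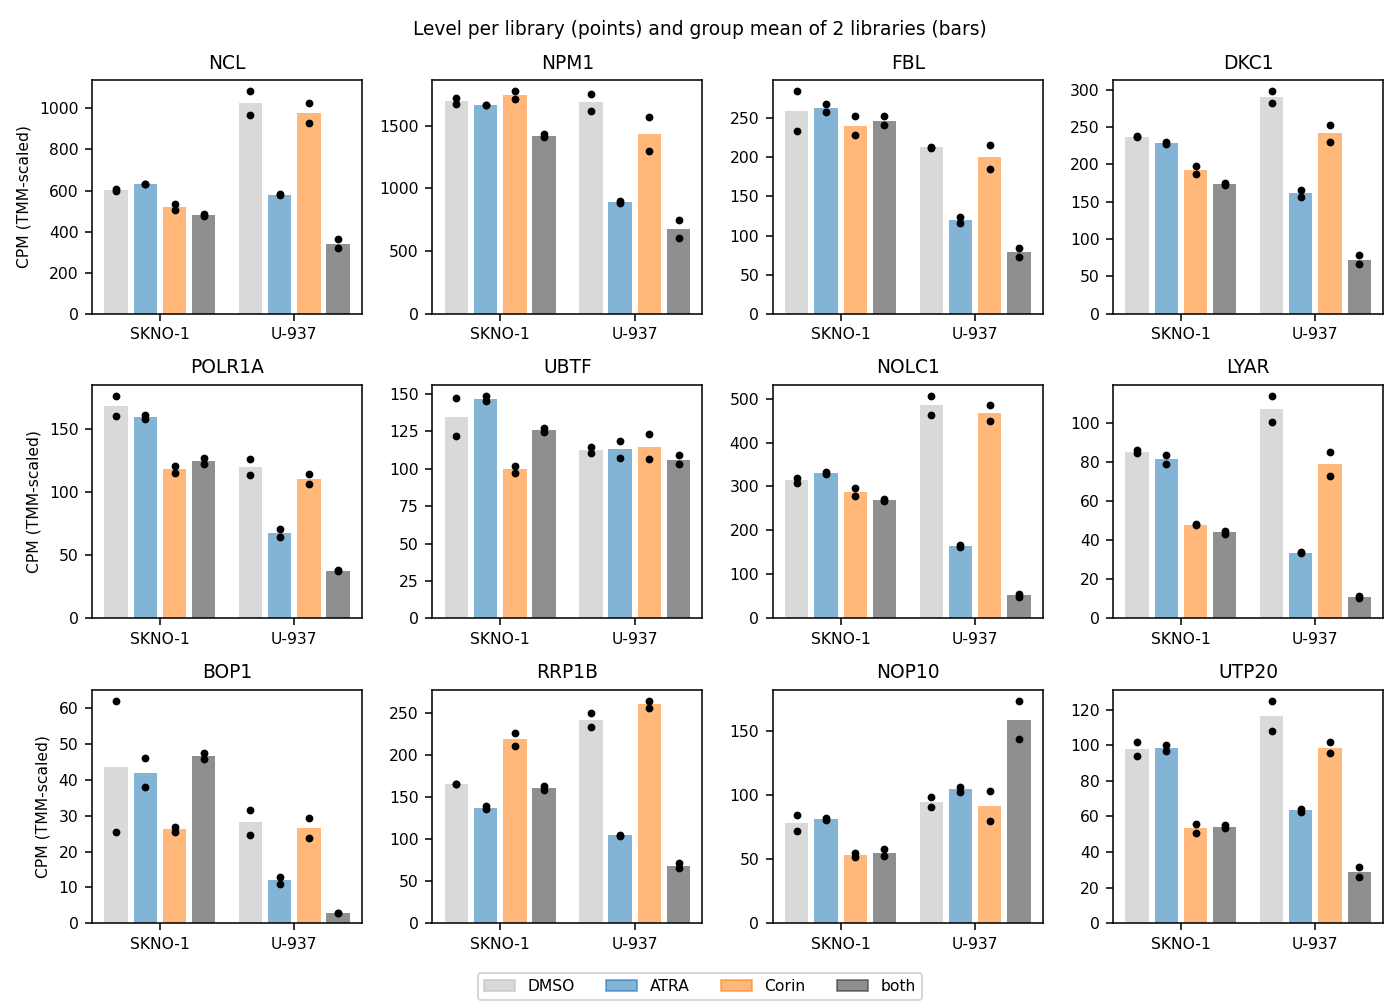
CPM of 12 genes in each library (points) and the mean of the 2 libraries (bars, from 0) for the 4 treatments in SKNO-1 and U-937. LYAR, NOLC1, BOP1 and most others fall stepwise in U-937 with ATRA and with both agents, UBTF has no called change there, NOP10 rises with both agents, and RRP1B rises in SKNO-1 with Corin alone.

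Among the factors of RNA polymerase I transcription, the polymerase subunits fell in U-937 and the DNA-binding factor UBTF did not pass the test. POLR1A, the largest subunit, had 126 and 114 CPM in U-937 with DMSO, 71.2 and 64.9 with ATRA, 107 and 115 with Corin and 38.2 and 37.7 with both agents. The ATRA group and the group with both agents each lay below DMSO without overlap, and the fall with both was 3.16-fold (log2 fold change -1.66 ± 0.10, adjusted p = 7.91e-13). In SKNO-1 it had 176 and 161 CPM with DMSO, 158 and 161 with ATRA, 120.5 and 115 with Corin and 122 and 127 with both, and it fell by 1.43-fold with Corin (adjusted p = 0.000664). UBTF, the upstream binding factor that marks active ribosomal DNA (chromosome 17, 44205033 to 44221626, GRCh38), had 114 and 110.2 CPM in U-937 with DMSO, 107 and 118 with ATRA, 123 and 107 with Corin and 103 and 109 with both agents. The ATRA and Corin libraries overlapped the DMSO range, those with both agents lay just below it, and the log2 fold change with both was -0.08 ± 0.10 (adjusted p = 0.481), the only one of the 45 that was not called. With library totals alone as the scaling it was called lower. In SKNO-1 UBTF had 147 and 122 CPM with DMSO, 145 and 148 with ATRA, 102 and 97.3 with Corin and 127 and 125 with both agents. Only the Corin libraries lay below both DMSO libraries, and UBTF fell there by 1.35-fold (log2 fold change -0.43 ± 0.09, adjusted p = 0.00671). POLR1B, the second-largest subunit, and DDX21, a helicase that works on the precursor RNA, changed by -1.73 and -2.16 log2 units in U-937 with both agents, and by -0.31 and -0.50 in SKNO-1.

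The box C/D proteins, which carry out ribose methylation, all fell in U-937 with ATRA and with both agents. Of all genes tested, 20.1% and 32.2% fell in these comparisons. FBL (fibrillarin), the methyltransferase, had 213 and 214 CPM with DMSO, 117 and 124 with ATRA, 216 and 185 with Corin and 72.1 and 84.6 with both. The levels stepped down in the same order as for NCL, with a fall of 2.72-fold with both (log2 fold change -1.45 ± 0.11, adjusted p = 2.32e-11). In SKNO-1, FBL had 285 and 234 CPM with DMSO, 258 and 268 with ATRA, 253 and 229 with Corin and 253 and 241 with both, all groups overlapping DMSO, and none of the comparisons was called. Its partners NOP56 and NOP58 changed by -2.06 and -1.82 log2 units in U-937 with both agents, and by -0.42 and -0.22 in SKNO-1, where both were called.

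The box H/ACA proteins did not move as 1 group in U-937. DKC1 (dyskerin), the pseudouridine synthase, had 282 and 298 CPM in U-937 with DMSO, 156 and 166 with ATRA, 253 and 230.3 with Corin and 66.2 and 78.6 with both agents, a log2 fold change of -2.00 ± 0.11 with both (adjusted p = 6.46e-14). No library of the other 3 groups reached the DMSO range. In SKNO-1 it had 238 and 236 CPM with DMSO, 227 and 230.1 with ATRA, 197 and 187 with Corin and 172 and 174 with both, a log2 fold change of -0.45 ± 0.05 with both (adjusted p = 0.000332). NHP2 and GAR1, which complete the particle, fell in U-937 with both agents by 5.06-fold and 3.83-fold. NOP10 (chromosome 15, 34339159 to 34343180, GRCh38), the remaining member of the same particle, had 90.4 and 98.9 CPM in U-937 with DMSO, 102 and 107 with ATRA, 103 and 79.7 with Corin and 144 and 173 with both agents. The libraries with both agents were the highest of the line, above every other library. NOP10 rose 1.67-fold there (log2 fold change 0.74 ± 0.12, adjusted p = 1.69e-05), the only gene of the 45 to rise, and 1.52-fold over ATRA alone (adjusted p = 0.000294). In SKNO-1 the direction was opposite: 84.6 and 72.0 CPM with DMSO, 80.8 and 82.3 with ATRA, 54.6 and 51.7 with Corin and 58.2 and 52.2 with both agents. The 4 Corin-treated libraries were below the other 4, and NOP10 fell by 1.47-fold with Corin and by 1.42-fold with both (adjusted p = 0.0025 and 0.00302). NOP10 counts were whole, within 0.001, in every library, and no protein-coding or long noncoding gene overlaps it.

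The small-subunit processome fell as a body in U-937 with ATRA and with both agents. In each case 9 of its 9 members fell, all 9 by at least 1 log2 unit with both. With Corin alone 2 fell. Of all genes tested, 20.1% fell by any amount with ATRA, 4.40% with Corin and 32.2% with both agents. UTP20, a large scaffold of the processome, had 108 and 125 CPM in U-937 with DMSO, 62.5 and 64.2 with ATRA, 102 and 95.4 with Corin and 25.9 and 31.8 with both. Its fall with both agents was 4.04-fold (log2 fold change -2.01 ± 0.11, adjusted p = 1.44e-13), the largest of the 9. In SKNO-1 UTP20 had 94.2 and 102 CPM with DMSO, 100.3 and 96.5 with ATRA, 55.9 and 51.0 with Corin and 53.6 and 55.1 with both. The levels with Corin, alone or with ATRA, lay well below the 4 other libraries, and the fall with Corin of 1.83-fold (log2 fold change -0.87 ± 0.07, adjusted p = 9.15e-05) was the largest of the 45 in that comparison. UTP15, UTP4, WDR43, WDR75 and HEATR1 belong to the part of the processome that also joins polymerase I transcription. UTP15 had 52.4 and 64.1 CPM in U-937 with DMSO, 33.8 and 33.3 with ATRA, 49.2 and 40.6 with Corin and 18.3 and 22.3 with both, and it was one of the 4 genes called with Corin alone (-0.37 ± 0.12, adjusted p = 0.0462). The others called with Corin alone in U-937 were LYAR, UTP4 (-0.31 ± 0.10, adjusted p = 0.0358) and WDR12 (-0.31 ± 0.10, adjusted p = 0.0425). None of these 4 calls held in every alternative. NOP14, DDX10, a helicase, and RRP9, a protein of the U3 particle, changed by -1.79, -1.78 and -1.69 log2 units in U-937 with both agents. In SKNO-1, 7 of the 9 fell with Corin and 8 with both, where 17.3% and 22.0% of all genes fell. RRP9 was the one not called with both agents, at 27.5 and 15.7 CPM in its DMSO libraries. Without DMSO replicate 1 the falls were 8 with Corin and 8 with both, and without DMSO replicate 2 they were 8 and 9.

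The late 40S factors had the smallest median fall of the 7 role groups in U-937 with both agents, -1.51 log2 units, and the nucleolar proteins the largest, -2.19. In U-937 with both agents, BYSL (bystin) changed by -2.09, PNO1 by -1.72, NOB1, the endonuclease that makes the mature end of the small-subunit RNA, by -1.29, and RRP12, an export factor, by -0.85 ± 0.11 log2 units. RRP12 was the smallest fall among the 43, with 57.0 and 51.1 CPM with DMSO, 34.2 and 38.9 with ATRA, 55.8 and 56.5 with Corin and 30.5 and 29.6 with both agents. Its libraries with both agents lay below those with ATRA, but by a margin that lost its call in 6 alternatives. BYSL was the opposite case, with 35.2 and 36.2 CPM with ATRA and 12.9 and 13.7 with both in U-937, a further fall of 2.68-fold on ATRA (log2 fold change -1.42 ± 0.11, adjusted p = 2.3e-10).

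Of the 15 factors of 60S assembly, all fell in U-937 with ATRA and with both agents, where 20.1% and 32.2% of all genes fell. BOP1, which forms the PeBoW complex with PES1 and WDR12, had 31.5 and 24.7 CPM with DMSO, 11.1 and 12.9 with ATRA, 29.4 and 23.6 with Corin and 2.96 and 2.99 with both agents. The Corin range overlapped DMSO and the group with both agents was the lowest, 9.46-fold below DMSO (log2 fold change -3.24 ± 0.17, adjusted p = 3.1e-14). In SKNO-1 its DMSO libraries had 61.9 and 25.3 CPM, the widest pair of the 45, and no comparison with DMSO was called. PES1 and WDR12 fell by 3.18-fold and 4.87-fold in U-937 with both agents, so the 3 subunits of this complex fell by unequal amounts. EBNA1BP2, an early 60S scaffold, had 130.5 and 146 CPM in U-937 with DMSO, 52.4 and 58.3 with ATRA, 120.2 and 109 with Corin and 17.5 and 18.3 with both, a 7.73-fold fall (adjusted p = 1.08e-16). In SKNO-1 it had 108 and 100.0 CPM with DMSO, 96.8 and 101 with ATRA, 61.0 and 59.4 with Corin and 56.7 and 54.5 with both agents, a 1.87-fold fall with both (adjusted p = 3.44e-05). With both agents EBNA1BP2 thus had the fourth largest fall of the 45 in U-937 and the second largest in SKNO-1. MRTO4, which holds the place of the stalk protein, and NOP16 fell by 7.58-fold and 5.71-fold in U-937 with both agents, and the GTPases GNL2 and GNL3 by 2.35-fold and 3.83-fold. NIP7, RRS1, LAS1L, WDR74, NOP2, a methyltransferase of the large-subunit RNA, and PPAN changed by -2.13, -1.97, -1.69, -1.50, -1.58 and -1.39 log2 units.

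RRP1B, a nucleolar protein that also binds a protein phosphatase, was the exception in SKNO-1. It had 166 and 165 CPM in SKNO-1 with DMSO, 136 and 139 with ATRA, 226 and 211 with Corin and 163 and 158 with both agents. The Corin libraries were the highest, the ATRA libraries the lowest, and those with both agents lay just below DMSO. It rose 1.32-fold with Corin (log2 fold change 0.40 ± 0.06, adjusted p = 0.00125) and fell by 1.21-fold with ATRA (adjusted p = 0.0292), the one call with ATRA in SKNO-1, and that fall was not called in 8 alternatives. In U-937 it had 233 and 249.6 CPM with DMSO, 104 and 105 with ATRA, 264 and 256 with Corin and 65.3 and 71.9 with both. There it followed the other factors, with a 3.52-fold fall with both agents (adjusted p = 9.28e-14), and Corin alone did not change it beyond the test (0.11 ± 0.10, adjusted p = 0.521).

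Whether Corin acted on the pathway differently once ATRA was present was asked by setting both agents against each single agent. In U-937, both agents against ATRA gave 43 lower and 1 higher of 45, where 24.8% and 22.5% of all genes were, with a median of -0.87 log2 units against 0.01 for all genes. Both agents against Corin gave 43 lower and 1 higher, where 30.6% and 29.9% of all genes were, with a median of -1.70. NOP10 was the gene that was higher in each. The effect beyond additivity, which subtracts the effects of ATRA alone and of Corin alone from that of the pair on the log2 scale, was below 0 and called for 35 genes and above 0 for 1, where 15.3% and 8.09% of all genes were, with a median of -0.77 against -0.03. It was largest for BOP1, at -1.93 ± 0.22 (adjusted p = 3.24e-07), and then for MRTO4 (-1.61 ± 0.15), NOLC1 (-1.60 ± 0.15) and NHP2 (-1.41 ± 0.16). For NOP10 it was 0.65 ± 0.17 (adjusted p = 0.00736). It was not called for UBTF, NPM1, WDR75, RRP12, NOB1, UTP15, PNO1, WDR74 and GAR1, so several factors whose fall with both agents was called did not depart from the sum beyond the test. For NPM1 the estimate was -0.16 ± 0.18 (adjusted p = 0.575).

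In SKNO-1, both agents against ATRA gave 30 lower and 1 higher of 45, where 21.8% and 23.0% of all genes were, with a median of -0.36 against 0.04. Both agents against Corin gave 3 lower and 1 higher, where 5.60% and 4.82% of all genes were, with a median of -0.01. The lower ones were RRP1B (-0.44 ± 0.06), NPM1 (-0.30 ± 0.05) and GNL3 (-0.22 ± 0.05), and the higher one was TCOF1 (0.51 ± 0.11). These shares are near those of all genes, and none of the 4 calls held in every alternative. The number called was 29 without either DMSO library and at most 2 without any other library. The effect beyond additivity was called for 0 of 45 genes by edgeR, where 0.149% of all genes were lower and 0.315% higher, with 3 genes at an unadjusted p under 0.05, 0 called by DESeq2 and a median of 0.01. That count was 23 without SKNO-1 DMSO replicate 2 and 2 without DMSO replicate 1.

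**Figure D4:**
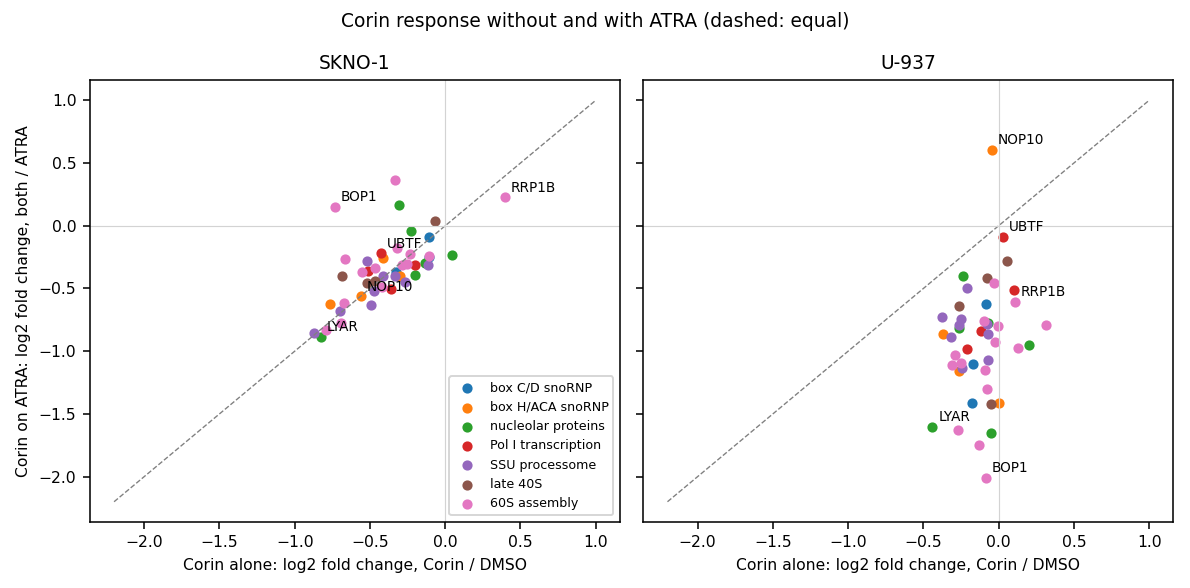
Log2 fold change of each of the 45 genes with Corin alone against DMSO (horizontal axis) and with both agents against ATRA (vertical axis), coloured by role, with the dashed line where both are equal. The SKNO-1 genes lie around the line, whereas in U-937 nearly all lie below it, with Corin alone near 0, and NOP10 lies above it.

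The difference between the lines was tested as an interaction over all 16 libraries, as the U-937 effect minus the SKNO-1 effect. The ATRA effect was lower in U-937 for 41 of 45 genes and higher for 0, where 8.81% and 10.6% of the 19872 genes tested were, with a median difference of -0.85 against 0.04 for all genes. NOLC1 differed most, by -1.58 ± 0.12 (adjusted p = 2.87e-08), and BOP1, PPAN, UBTF and NOP10 were not called. The Corin effect was higher in U-937 for 10 genes and lower for 0, where 5.28% and 7.49% of all genes were, with a median of 0.31 against -0.01. These 10 were RRP12 (0.73 ± 0.18, adjusted p = 0.00907), UTP20 (0.63), RRS1 (0.57), MRTO4 (0.54), EBNA1BP2 (0.52), TCOF1 (0.51), NOP10 (0.51), UBTF (0.46), NIP7 (0.44) and POLR1A (0.39). This count ran from 2 without SKNO-1 Corin replicate 2 to 21 without SKNO-1 DMSO replicate 2. The effect of both agents was lower in U-937 for 43 genes and higher for 1, where 22.7% and 17.9% of all genes were, with a median of -1.41 against -0.11. BOP1 differed most, by -3.30 ± 0.51 (adjusted p = 0.00051), NOP10 was the higher one at 1.29 ± 0.17 (adjusted p = 3.45e-06), and UBTF, at 0.05 ± 0.13, was not called (adjusted p = 0.829). With DMSO alone the lines differed in both directions: 9 genes were higher in U-937 and 19 lower, where 31.7% and 33.1% of all genes were, with a median of -0.08. Among the called genes, the highest were BYSL (0.77), LAS1L (0.69) and NCL (0.65), and the lowest PPAN (-1.08), DDX10 (-0.99) and PES1 (-0.73). The SKNO-1 DMSO pair was wide for PES1, at 142 and 96.8 CPM, and wider for PPAN. Without SKNO-1 DMSO replicate 1 the difference was -0.57 for PPAN and -0.39 for PES1, and without replicate 2 it was -1.41 and -0.95. For BOP1, which was not called, it was 0.07 without replicate 1 and -1.23 without replicate 2. Of the 28 calls between the lines with DMSO, 16 held in every alternative.

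Other genes of ribosome production, from lists that do not share members with the 45, also fell in U-937, with medians closer to 0. These lists, too, were chosen with earlier results of these data known. With both agents, where 32.2% of all genes tested fell and 33.1% rose, 35 of 38 other small-subunit factors fell and 0 rose, with a median log2 fold change of -0.98. The most changed were WDR3 (-2.17 ± 0.11) and TSR1 (-2.04 ± 0.11). Of 43 other 60S factors 39 fell and 1 rose, with a median of -1.08, led by NOC3L (-2.33 ± 0.12) and BRIX1 (-2.26 ± 0.13). Of 11 other polymerase I genes 7 fell and 0 rose, with a median of -0.61, and the subunits POLR1G (-3.50 ± 0.14) and POLR1E (-2.78 ± 0.12) changed most. Of 14 genes of the RNA exosome, which trims the precursor, 12 fell and 0 rose, with a median of -0.84, among them EXOSC2 (-2.17 ± 0.11) and MPHOSPH6 (-2.12 ± 0.13). With ATRA alone in U-937, where 20.1% of all genes fell and 21.7% rose, the lower and higher counts were 31 and 0 for the small-subunit list, 38 and 1 for 60S, 5 and 0 for polymerase I and 7 and 0 for the exosome. The medians with ATRA were -0.58, -0.56, -0.26 and -0.27, against 0.02 for all genes, so the polymerase I and exosome lists were nearer to the background than the other two.

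The structural proteins of the ribosome had medians near 0 in U-937, and the count of those that rose in SKNO-1 depended on which DMSO library was used. Of 78 ribosomal protein genes in U-937, 4 fell and 4 rose with ATRA, 0 fell and 0 rose with Corin by edgeR (7 at an unadjusted p under 0.05), and 18 fell and 9 rose with both agents, where the median log2 fold change was -0.10. These are smaller shares than those of all genes, of which 20.1% fell and 21.7% rose with ATRA, 4.40% and 8.55% with Corin, and 32.2% and 33.1% with both agents. RPS27 (0.93 ± 0.13) and RPL12 (-0.71 ± 0.12) changed most. In SKNO-1, 31 of the 78 rose and 0 fell with Corin, with a median of 0.17, where 20.5% and 17.3% of all genes did. With both agents 40 rose and 1 fell, with a median of 0.28, where 24.7% and 22.0% of all genes did. Against ATRA, a comparison without the DMSO pair, both agents gave 12 higher and 1 lower, where 23.0% and 21.8% of all genes were, with a median of 0.15. Against DMSO, 75 rose and 0 fell with Corin when DMSO replicate 1 was left out, and 71 rose and 2 fell with both agents. Without DMSO replicate 2 the numbers were 33 and 18 with Corin, and 47 and 5 with both agents. With ATRA 1 rose and 0 fell, but 56 rose and 0 fell without DMSO replicate 1, and 1 rose and 24 fell without replicate 2. Ribosomal proteins have many processed copies in the genome, so their estimated counts are uncertain. A list of 10 proliferation genes was read beside these results. In U-937 with ATRA, 1 of them fell and 2 rose, with a median of 0.04, where 20.1% of all genes fell and 21.7% rose. With both agents 10 of 10 fell and 0 rose, with a median of -1.80, led by the replication helicase genes MCM2 (-3.47 ± 0.11) and MCM5 (-2.65 ± 0.11). The part of proliferation in the fall with both agents was not tested. In SKNO-1, 7 of 10 fell and 1 rose with Corin, and 6 fell and 0 rose with both agents, where 17.3% and 22.0% of all genes fell. Without SKNO-1 DMSO replicate 1 these numbers were 9 and 1 with Corin and 8 and 2 with both, and without replicate 2 they were 7 and 2, and 9 and 0.

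**Figure D5:**
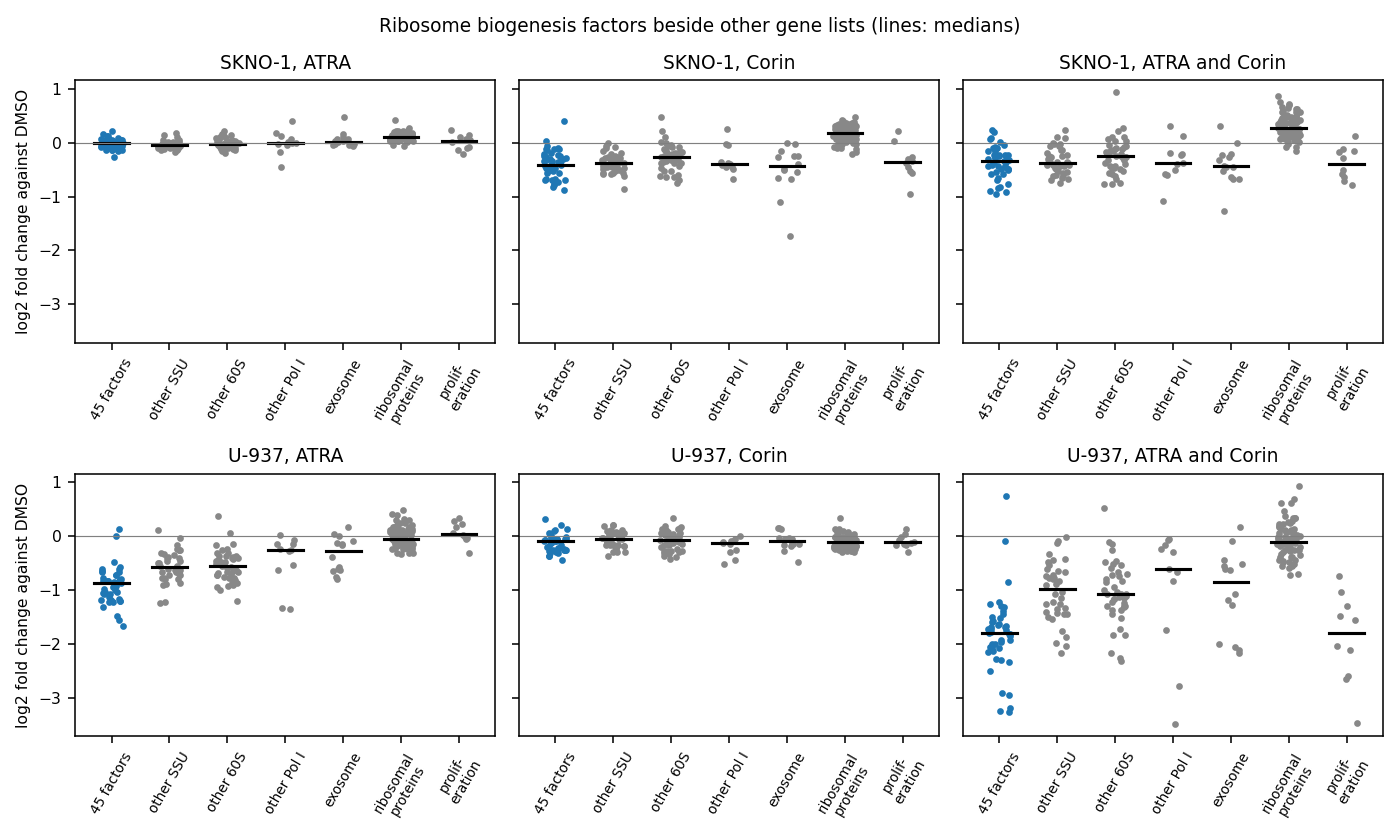
Log2 fold change against DMSO of each gene in the 45 factors (blue) and in 6 other lists (grey), with list medians as lines, for each treatment in SKNO-1 (upper row) and U-937 (lower row). With both agents in U-937 the medians are -1.79 for the 45 factors, -1.80 for proliferation genes and -0.10 for ribosomal proteins.

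In the authors' deposited table for U-937, 43 of the 45 genes were lower and 0 higher with ATRA, 2 lower and 0 higher with Corin, and 43 lower and 1 higher with both agents. Of all genes with an adjusted p in the authors' deposited table for U-937, 19.3% were lower with ATRA, 4.12% with Corin and 24.3% with both agents, so the share of the 45 with Corin was near that of all genes. In the authors' deposited table for SKNO-1, 0 were lower and 0 higher with ATRA, 21 lower and 1 higher with Corin, and 25 lower and 0 higher with both agents, where 2.02%, 9.77% and 13.4% of all genes were lower. Fractional estimated counts, in which reads were divided between genes, occurred for 20 of the 45 genes in at least 1 library, and 23 overlap a protein-coding or long noncoding gene, for example PPAN with the read-through gene PPAN-P2RY11 on the same strand. The use of strand in counting is not given in the sources used here, so the values of those 23 are uncertain.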

How the data were processed

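RNA was measured in 16 libraries, with strand-marking total RNA libraries per the labels' protocols. The authors deposited RSEM estimated counts and TPM per gene, 1 file per library, and a table of all libraries, with Trimmomatic, STAR, RSEM and DESeq2 on hg38 named in the submitters' processing notes. The annotation release and the use of strand are not given in the sources used here. The authors' deposited tables of 6 comparisons hold log2 fold changes and adjusted p-values, per the file headers, and were only set beside the results. Groups came from the sample titles.

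Estimated counts were rounded, which moved no library total by more than 42.03 counts, and no per-sample column was left unused. Genes were filtered with edgeR 4.0.16 (filterByExpr in R 4.3.3), scaled by TMM, and tested with the robust quasi-likelihood F test in each line (8 libraries, 4 residual degrees of freedom) or, between lines, in all 16, with Benjamini-Hochberg adjustment over 17479, 17717 or 19872 genes and a threshold of 0.05. The fits had a common biological coefficient of variation of 0.107 (SKNO-1), 0.0945 (U-937) and 0.101 (both lines). SE is the unshrunken log2 fold change over the root of F. With 2 libraries a group no permutation test of 1 gene can pass, so p-values come from models that share spread across genes. Depth of 28.4 to 37.8 M counts bears on counting error only. On simulated data the test recovered 65% of 1.5-fold and 97% of 2-fold changes for U-937 with both agents against DMSO (17717 genes), and 56% and 92% for SKNO-1 (17479 genes). In these simulations 17 and 20 unchanged genes were called, so the share of false calls was above the threshold of 0.05. Each simulation changed only 100 genes at each fold, all picked above a floor on level, far fewer than were called in these data. The shares recovered and falsely called therefore may not carry over to the comparisons reported.

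The members and all lists were chosen with earlier results of these data known. Values per library are given for NCL, NPM1, FBL, DKC1, POLR1A and UBTF, for the 2 called members with the largest change in each comparison of agents with DMSO, and for members called against the majority. BYSL, RRP12, NOP10 in SKNO-1 and RRP9 were added after their values were seen. Other lists give at most the 2 genes with the largest change in U-937 with both agents. POLR1F, POLR1G, POLR1H and RPL6 were found by Ensembl identifier. Gene positions were taken from GENCODE release 44 (GRCh38) and promoter windows from RefSeq (GRCh38.p14). Alternatives were DESeq2 1.42.0, library totals as the scaling, RLE scaling, no filter on low counts, only the libraries compared, removal of a GC trend (lowess, span 0.3), the replicate number as a block with and without that removal, and leaving out each library. The list counts without either SKNO-1 DMSO library, and the values of single members between the lines with DMSO without each DMSO library, were added after seeing the data.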

Additional observations from a re-analysis of the deposited data

Results flagged for a closer look

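The effect of ATRA differed between the lines by the interaction test in all 16 libraries for 41 of the 45 genes, each lower in U-937. Of all 19872 genes tested, 8.81% were lower and 10.6% higher. NOLC1 differed most, with a log2 difference of -1.58 in U-937 minus SKNO-1. In SKNO-1 the 2 DMSO libraries differed more than any other pair, and the count ran from 38 to 43 when 1 library was left out.

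The effect of Corin differed between the lines for 10 genes, each with a less negative or more positive value in U-937. Of all genes tested, 5.28% were higher in U-937 and 7.49% lower. RRP12 differed most, by 0.73 log2 units. This is the least stable of these counts, from 2 to 21 genes when 1 library was left out, and 2 of the 10 genes kept their call in every alternative.

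The effect of both agents differed between the lines for 44 genes, 43 lower and NOP10 higher in U-937, where 22.7% and 17.9% of all genes were. BOP1 differed most, by -3.30 log2 units, and its 2 SKNO-1 DMSO libraries were 61.9 and 25.3 CPM.

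Within U-937, the effect of Corin in the presence of ATRA differed from its effect without ATRA for 36 genes by the test of the effect beyond additivity. Of all genes tested there, 15.3% were called lower and 8.09% higher. BOP1 departed most from the sum, by -1.93 log2 units, and 32 of the 36 genes kept their call in every alternative.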

How the results depend on the processing

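Of 123 recomputed counts outside the leave-one-out settings, 108 lay within 1.5 times the reported count. All called genes kept their call and direction in every alternative for U-937 with ATRA (43 of 43), with both agents (44 of 44) and with both against Corin (44 of 44). For both agents against ATRA in U-937 this held for 40 of 44 (RRP12, WDR74, NPM1 and NOB1 lost it), for SKNO-1 with both agents for 23 of 29 and for SKNO-1 with Corin for 18 of 29. Library totals as the scaling moved the median of all genes by -0.12 log2 units in U-937 with both agents and called 45 members there.

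When 1 library was left out, the called members ran from 38 to 43 for the line difference in ATRA response, 43 to 44 in the combined response and 2 to 21 in Corin response. In SKNO-1 they ran from 24 to 40 for both agents against ATRA, 0 to 29 for both against Corin, 24 to 41 for both against DMSO, 0 to 21 for ATRA, 19 to 42 for Corin and 0 to 23 beyond additivity. In U-937 they ran from 41 to 44 for both against ATRA, 32 to 40 beyond additivity and 0 to 6 for Corin, and between the lines with DMSO from 24 to 28. The high values of SKNO-1 came without one of its DMSO libraries (29 for both against Corin without either).

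Other settings moved these counts. For both against Corin in SKNO-1 DESeq2 gave 8, no low-count filter 10 and only the libraries compared 28. For SKNO-1 beyond additivity no low-count filter gave 3 and GC trend removal 1. Only the libraries compared gave 18 for SKNO-1 with Corin and 0 for SKNO-1 with ATRA. For U-937 with Corin library totals gave 9 and no low-count filter 2. GC trend removal gave 17 for the line difference in Corin response. The cause was not tested.

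Deviations of same-numbered libraries correlated from -0.488 to 0.236 in SKNO-1 and from -0.447 to 0.418 in U-937 between groups. In some groups these deviations followed GC content (Pearson's r = 0.796 in SKNO-1 DMSO and 0.578 in U-937 DMSO). The correlations therefore cannot show whether same-numbered libraries belong together. With the replicate block the count was 0 for SKNO-1 with ATRA, 2 for both against Corin in SKNO-1, 6 for the line difference in Corin response, and 1 for U-937 with Corin, or 2 with the GC trend removed as well. With DMSO alone, NOP2 changed sign to 0.02 without SKNO-1 DMSO replicate 1.

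Counting error is largest for BOP1 in U-937 with both agents, the lowest named level, at 2.96 and 2.99 CPM. The spread of the SKNO-1 DMSO pair limits the SKNO-1 comparisons with DMSO.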

Other observations

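Several of the 45 genes carry small nucleolar RNAs in their introns. Of 25 such RNAs in 7 host genes, most were at 0 estimated counts in every library, and SNORA75 and SNORA51 had the most counts, so the guide RNAs of most of these hosts were not measured.

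The E-box CACGTG was present in a promoter window of 12 of 32 other small-subunit factors (37.5%), 9 of 38 other 60S factors (23.7%) and 4 of 62 ribosomal protein genes (6.45%). It was present in 1 of 10 other polymerase I genes (10%), 1 of 12 exosome genes (8.33%) and 2 of 8 proliferation genes (25%). The share over genes with a window that were also tested for expression was 12.2%. Among the 45 genes no window of NCL, NPM1, DKC1, POLR1A or UBTF held it.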
